A study of Mus musculus with 3 samples.

Results

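Binding of a tethered Nrf2-MafG protein was examined at 4 genes of the thioredoxin and peroxiredoxin system, Txn1, Txnrd1, Prdx1 and Srxn1, in mouse embryonic fibroblasts. Each gene was given a window in the mouse build mm9, and every summit of the deposited lists that fell inside was taken. A summit is the base of highest signal in a peak called by the authors. The windows lay on chromosome 4 from 57906000 to 58020000 for Txn1, on chromosome 10 from 82250000 to 82410000 for Txnrd1, on chromosome 4 from 116308000 to 116408000 for Prdx1 and on chromosome 2 from 151880000 to 151985000 for Srxn1. They covered 479 kb together and held 3 of the 182 summits of the vehicle list and 5 of the 1246 summits of the DEM list. The genes and their windows were selected on the presence and score of summits in these lists, so presence, score and rank are described here and not tested.

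The chromatin came from cells in which MafF, MafG and MafK, the small Maf proteins, are all deleted and which carry the tethered Nrf2-MafG construct. All 3 libraries of the series share this genotype. One library was from cells given vehicle for 4 hours and 1 from cells exposed to diethyl maleate (DEM) at 100 µM, also for 4 hours. The remaining library was input DNA, for which no list was used here. The immunoprecipitation used an antibody against MafG, and by the genotype the construct is the only source of MafG sequence in these cells. The sources used here do not give the promoter that drives the construct or say whether the cells are 1 clone, and a summit list cannot be checked for markers of fibroblasts. No library came from cells without the construct. Each condition had 1 library of unknown read depth, so no value has a replicate error and no difference between vehicle and DEM was tested.

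Thioredoxin is a small protein that reduces disulfides in other proteins and is itself recharged by thioredoxin reductase with electrons from NADPH. Peroxiredoxins remove peroxides and pass the oxidised state on to thioredoxin, and sulfiredoxin restores peroxiredoxins that have been oxidised too far. Nrf2, paired with a small Maf protein at antioxidant response elements, is a known activator of genes of this system. DEM, an electrophile, reacts with glutathione and lowers its level, a stress to which Nrf2 responds.

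Promoter sequences of the 4 genes are shown first, because the element that Nrf2 and small Maf proteins recognise can be read in them. They were matched by symbol in RefSeq, build GRCm38.p6, and run 5′ to 3′ on the gene's strand from 250 bases before the annotated start to 50 after it. All 4 symbols matched, with 1 promoter each for Prdx1, Srxn1 and Txn1 and 3 for Txnrd1, of which the one with a match is printed. Capitals mark matches to TGACNNNGC (the core antioxidant response element), TGANTCAGC (the NF-E2-type element) or TGANTCA (the AP-1-type element), on either strand. The last lies inside the second, and a sequence of the form TGACTCAGC fits all of them. The printed positions are of GRCm38.p6 and cannot be set against the mm9 summits, so whether a summit lies in a promoter was not determined.
Prdx1 (chr4:116685349-116685648, + strand): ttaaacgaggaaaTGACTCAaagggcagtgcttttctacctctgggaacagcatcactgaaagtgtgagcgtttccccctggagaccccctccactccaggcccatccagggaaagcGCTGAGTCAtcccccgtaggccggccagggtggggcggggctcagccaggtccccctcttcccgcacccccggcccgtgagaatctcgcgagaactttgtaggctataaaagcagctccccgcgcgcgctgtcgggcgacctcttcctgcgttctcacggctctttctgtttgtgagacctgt
Srxn1 (chr2:152105274-152105573, + strand): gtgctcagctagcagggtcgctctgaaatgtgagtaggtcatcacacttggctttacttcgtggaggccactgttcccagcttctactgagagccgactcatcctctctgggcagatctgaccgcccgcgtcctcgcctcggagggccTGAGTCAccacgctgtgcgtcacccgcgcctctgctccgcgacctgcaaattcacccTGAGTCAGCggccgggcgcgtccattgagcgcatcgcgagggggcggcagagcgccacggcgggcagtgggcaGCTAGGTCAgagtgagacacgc
Txnrd1 (chr10:82858956-82859255, + strand): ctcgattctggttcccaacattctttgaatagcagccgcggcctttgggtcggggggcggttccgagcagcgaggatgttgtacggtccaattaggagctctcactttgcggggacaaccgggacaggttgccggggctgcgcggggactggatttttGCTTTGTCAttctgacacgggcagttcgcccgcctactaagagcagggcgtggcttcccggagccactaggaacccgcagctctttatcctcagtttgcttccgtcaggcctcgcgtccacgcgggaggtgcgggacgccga
Txn1 (chr4:57956362-57956661, - strand): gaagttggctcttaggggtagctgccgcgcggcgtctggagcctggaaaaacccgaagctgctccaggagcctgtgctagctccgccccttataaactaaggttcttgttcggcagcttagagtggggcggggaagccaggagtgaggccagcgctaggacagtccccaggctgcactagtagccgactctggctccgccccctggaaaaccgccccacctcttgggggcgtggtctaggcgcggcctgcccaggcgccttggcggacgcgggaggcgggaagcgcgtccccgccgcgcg

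The core element was found in a promoter of 3 of the 4 genes, Prdx1, Srxn1 and Txnrd1, and the NF-E2-type element in 2, Prdx1 and Srxn1. In Prdx1 the core and the NF-E2-type element were the same 9 bases, GCTGAGTCA in the printed strand, which begin 133 bases before the start. A separate AP-1-type match, TGACTCA, begins 237 bases before it. In Srxn1 the NF-E2-type element, TGAGTCAGC, begins 45 bases before the start, and an AP-1-type TGAGTCA begins 102 bases before it. The core match of Srxn1, GCTAGGTCA, lies at a different place, 28 bases after the start. In Txnrd1 the only match was GCTTTGTCA, a core element beginning 92 bases before the start of the middle promoter. The Txn1 promoter held none of these letters, which says nothing of elements outside this window.

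Among all 32851 promoters of the same length, 12.4% held the core element, 1.19% the NF-E2-type element and 7.81% the AP-1-type element. Counted by gene, a core match occurred in 14.0% of 27025 genes and the NF-E2-type element in 1.37%. Of 16 other genes listed for the pathway, 13 had a promoter in the table, all except Msra, Prdx6 and Txnl1. The core element was found in 1 of these 13, Sesn2, a stress-induced sestrin, and the AP-1-type element in 1, Glrx, a glutaredoxin. The NF-E2-type element was found in 0 of them. Their summits were not counted, since mm9 gene positions were not used here. A match of letters is a description of the sequence and not a bound site.

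All 4 windows held a DEM summit and 3 held a vehicle summit. As background, 4.35% of consecutive 100 kb tiles of the genome held a DEM summit and 0.692% a vehicle summit, figures from which nothing is read, as the windows were chosen for their summits. A summit was called matched when the other list had a summit within 100 bp. All 3 vehicle summits in the windows were matched, against 98.9% of the whole vehicle list, and 3 of the 5 DEM summits were, against 14.4% of the whole DEM list. The whole list is mostly weaker summits. Of the 222 DEM summits that scored at least as high as the lowest of these 5, 153 were matched. The unmatched DEM summits in the windows were the only one of Srxn1 and 1 of the pair of Txnrd1. Scores are the authors' −log10 values from the peak caller. They depend on depth, so a score was compared only with others of its own list.

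**Figure D1:**
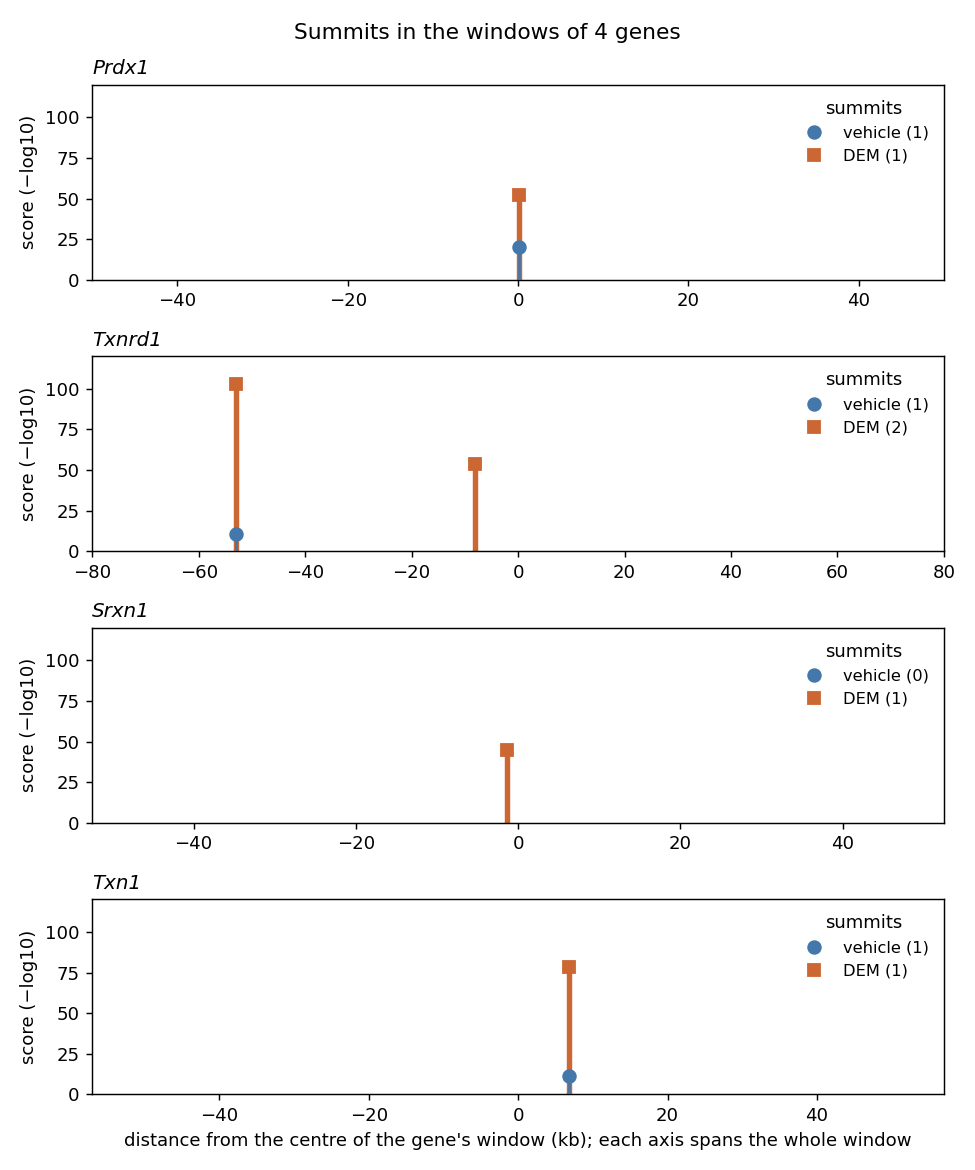
Summits in the 4 gene windows, with distance from the centre of each window in kb on the x axis and the authors' score (−log10) on the y axis, circles for the vehicle library and squares for the DEM library. Scores depend on depth, so heights are not comparable between the libraries. Txn1 and Prdx1 have 1 shared position, Txnrd1 has 1 shared and 1 DEM summit alone, and Srxn1 has 1 DEM summit and 0 vehicle summits.

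Txn1 encodes cytosolic thioredoxin, the electron carrier at the centre of the system. Its window held 1 summit in each list, on chromosome 4 at position 57969758 with vehicle and 57969755 with DEM. The vehicle score was 11.2, which ranked 87 of 182. The DEM score was 78.3, which ranked 111 of 1246 and put the site within the highest 8.99% of that list. The summits of the 2 libraries stood 3 bp apart, and 19 of the 180 shared sites had a smaller distance, where the median was 17.5 bp. No other summit of either list fell in the window. The nearest DEM summits outside it were 372 kb above the upper edge (58392266, score 25.6) and 690 kb below the lower edge (57215802, score 8.79), and neither was matched.

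Txnrd1 encodes cytosolic thioredoxin reductase, the selenoprotein that recharges thioredoxin. It was the only one of the 4 genes with more than 1 summit in its window. The lower position, on chromosome 10 at 82276986 with vehicle and 82277009 with DEM, was shared, with the summits 23 bp apart. Its vehicle score was 10.6 (rank 89 of 182, close to the list's median of 10.6). Its DEM score was 103.0 (rank 75 of 1246), the highest of the 5 DEM summits in the windows and within the highest 6.18% of the list. The upper position, 82321859, was called with DEM alone, with a score of 53.4 (rank 182). It stood 44.9 kb from the nearest vehicle summit, which was the lower Txnrd1 site itself.

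The Txnrd1 summits of the DEM list were 44.85 kb apart. Neighbours this close were found for 206 of the 1246 DEM summits (16.5%). The shared site lay 27.0 kb from the lower edge of the window and the DEM site 71.9 kb from it. A further weak DEM summit lay 9.98 kb outside the lower edge, at 82240018 (score 6.90, rank 1071), with no vehicle match. The shared site stood 53.0 kb from the centre of the window and the DEM site 8.14 kb from it. In gene order Txnrd1 lies between Nfyb, on the lower side, and Eid3 among protein-coding genes. Whether the shared site lies nearer to Nfyb than to Txnrd1 was not determined, so this site, the farther of the pair from the centre, is named only for the window it fell in. Which gene a summit acts on was not determined for any site.

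Prdx1 encodes a cytosolic peroxiredoxin that removes hydrogen peroxide. Its window held 1 shared site, on chromosome 4 at 116358058 with vehicle and 116358063 with DEM, 5 bp apart. With vehicle it had the highest score of the 3 sites, 20.2, which ranked 37 of 182 and was shared with 1 other summit. With DEM its score was 52.3, which ranked 185 of 1246 and was the lowest of the 3 shared sites. Prdx1 and the shared site of the Txnrd1 window stood in opposite order in the libraries: 20.2 against 10.6 with vehicle and 52.3 against 103.0 with DEM. Against the upper Txnrd1 site, which had no vehicle call, the DEM score of Prdx1 was close (52.3 and 53.4). The nearest DEM summit outside the window lay 1.33 Mb above its upper edge (117734782, score 18.5, unmatched). The nearest vehicle summit outside the window lay 15.8 Mb above that edge (132180487, score 7.88).

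Srxn1 encodes sulfiredoxin, which restores overoxidised peroxiredoxins. It was the only one of the 4 genes with 0 vehicle summits in its window. The DEM list held 1 summit there, on chromosome 2 at 151931196, with a score of 44.9 (rank 222 of 1246), the lowest of the 5 DEM summits and within the highest 17.8% of the list. The nearest vehicle summits on the chromosome were 15.2 Mb below the site (136746821, score 7.40) and, on the other side, 15.6 Mb beyond the upper edge of the window (167590855, score 91.7, rank 4). The 1066 unmatched DEM summits had a median distance of 3.30 Mb to the nearest vehicle summit, and 145 of them stood more than 15 Mb away. A further DEM summit without a match lay 64.8 kb beyond the upper edge, at 152049761 (score 25.6, rank 392). In gene order Srxn1 lies between Scrt2 and Tcf15. A site without a call stayed under the threshold of the authors' peak calling, with unknown depth, and is not shown to be unbound.

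**Figure D2:**
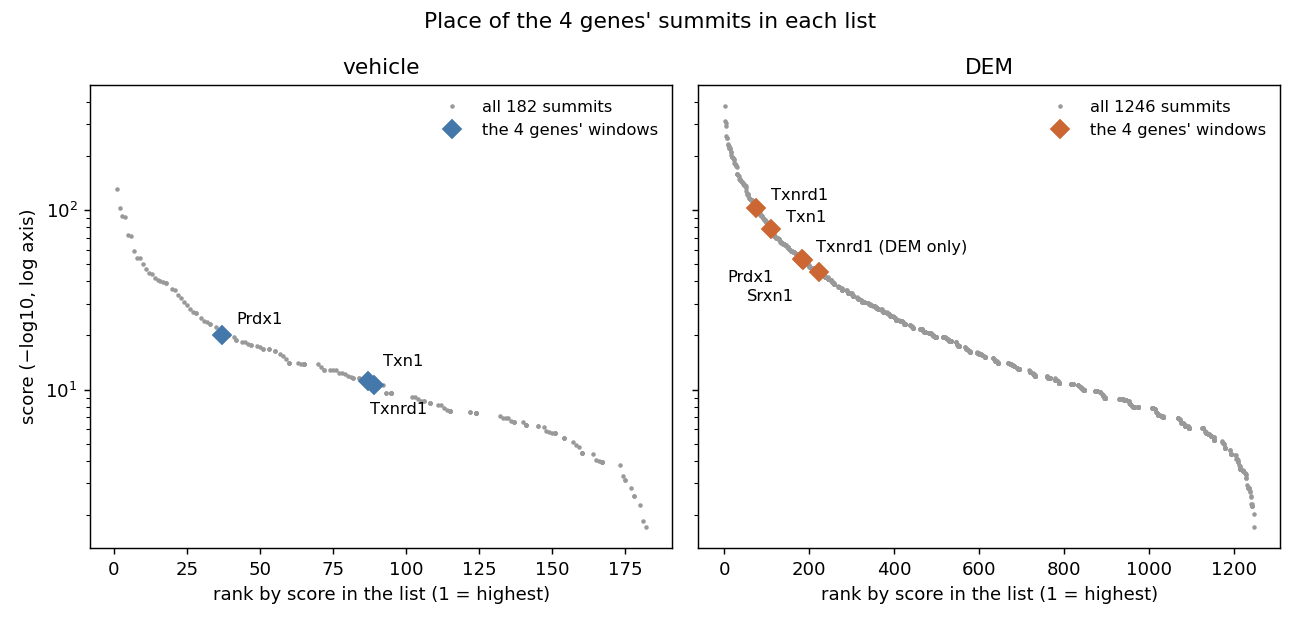
Authors' score (−log10, on a log axis) against rank in the vehicle list of 182 summits and the DEM list of 1246 summits, small points for all summits and diamonds for those in the 4 windows. The vehicle summits of Txn1 and Txnrd1 sit near the middle of their list at ranks 87 and 89, and all 5 DEM summits rank between 75 and 222.

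All 5 DEM summits in the windows scored at least 44.9, above the upper quartile of the DEM list (32.7). In the vehicle list the upper quartile was 17.9, and Prdx1 alone scored above it, while Txn1 and Txnrd1 lay just above the median of 10.6. The upper Txnrd1 site (53.4, unmatched) and Prdx1 (52.3, matched) had nearly equal DEM scores and differed in whether vehicle had a call. Of the 189 DEM summits that scored at least as high as Prdx1, 139 were matched. Among unmatched summits of the DEM list, the upper Txnrd1 site ranked 46 and Srxn1 69 of 1066.

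The state of each site was set beside that of the 100 DEM summits nearest to it in rank, 50 on each side, with exact (Clopper-Pearson) 95% intervals that cover counting error over summits only. Around the shared Txnrd1 site 84.0% of them were matched (95% interval 75.3 to 90.6%). Around Txn1 the share was 70.0% (95% interval 60.0 to 78.8%). It was 43.0% (95% interval 33.1 to 53.3%) around the upper Txnrd1 site and 42.0% (95% interval 32.2 to 52.3%) around Prdx1. Around Srxn1 it was 27.0% (95% interval 18.6 to 36.8%), so most DEM summits of similar score also lacked a vehicle call. These groups overlap, as the sites stand close together in the list.

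**Figure D3:**
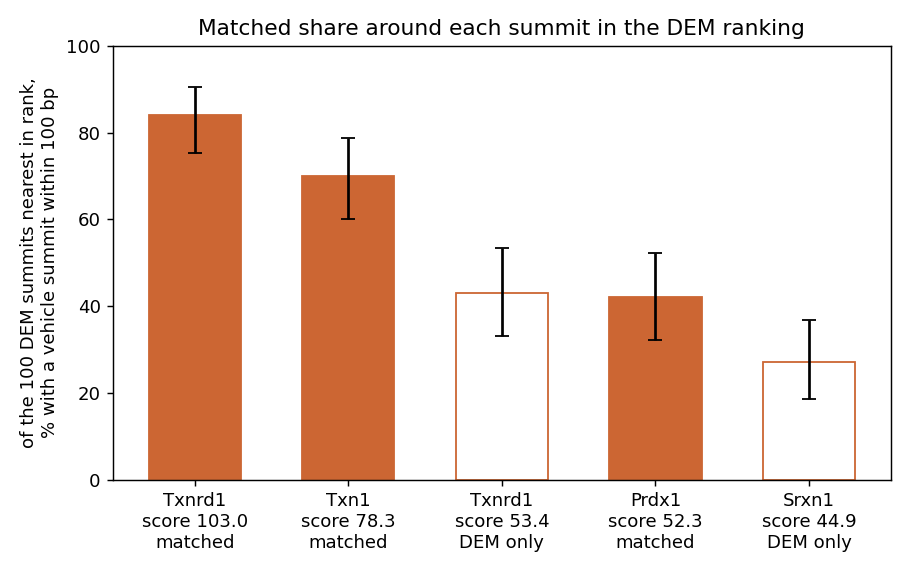
Percent of the 100 DEM summits nearest in rank to each site that had a vehicle summit within 100 bp, with exact 95% intervals as error bars. Filled bars stand for sites matched themselves and open bars for sites called with DEM alone. The share falls from 84.0% around the shared Txnrd1 site to 27.0% around Srxn1.

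The DEM summits next above and next below each site in score were both matched for Txn1, and 1 of the pair was matched for each of the other sites. Srxn1 stood between a matched summit on chromosome 2 at 30983658 (score 44.93) and an unmatched one on chromosome 11 at 115299082 (44.3). The upper Txnrd1 site stood between an unmatched summit on chromosome 12 at 82849208 (53.7) and a matched one on chromosome 17 at 80145555 (53.37). The shared Txnrd1 site stood between a matched summit on chromosome 5 at 36722796 (103.1) and an unmatched one on chromosome 9 at 42269588 (101.9). The Prdx1 site stood between a matched summit on chromosome 5 at 22967670 (52.5) and an unmatched one on chromosome 11 at 86427713 (51.8). The neighbours of Txn1 lay on chromosome 7 at 109174428 (79.6) and chromosome 17 at 83954506 (74.5).

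The 3 shared sites were then placed in order among the 180 shared sites, which gives lists of equal length. Prdx1 ranked 36 by vehicle score and 139 by DEM score. It stood 103 places lower with DEM, and of the 180 shared sites 1, Prdx1 itself, moved down that far. The site on chromosome 9 at 94440892, at ranks 22 and 124, fell almost as far. Only sites of high vehicle rank had room for such a fall, and Txn1 and the shared Txnrd1 site did not. Counting both directions, 2 sites moved further than Prdx1, both upwards in the DEM order. Txn1 ranked 86 and 97, and the shared site of the Txnrd1 window ranked 88 and 72. Their shifts of 11 and 16 places were smaller than the median shift of 24.5 places (quartiles 9.75 and 42). Without a replicate the spread of such shifts between libraries of 1 condition is unknown.

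**Figure D4:**
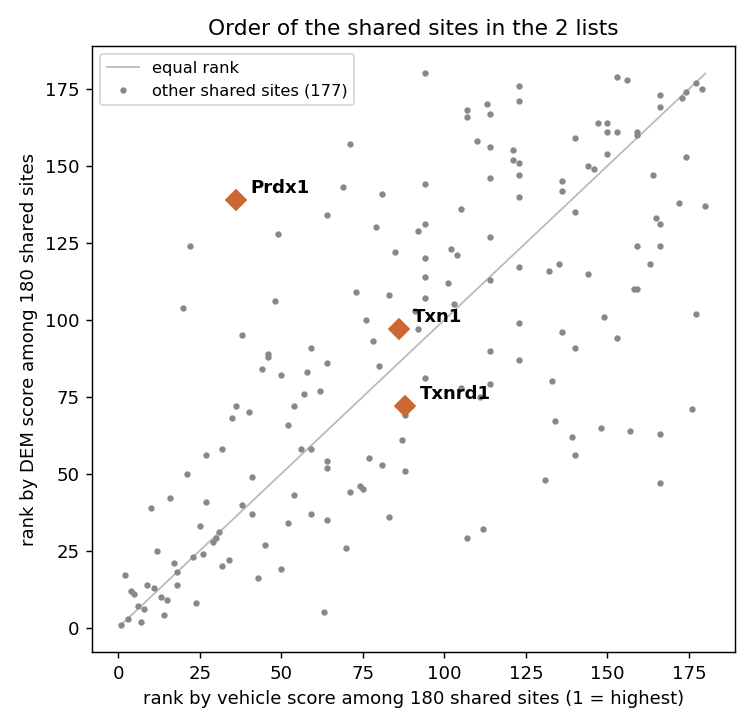
Rank by vehicle score (x axis) against rank by DEM score (y axis) among the 180 shared sites, where 1 is the highest score, with diamonds for Prdx1, Txn1 and Txnrd1 and a line at equal rank. Txn1 and Txnrd1 lie near the line, and Prdx1, at 36 and 139, lies far above it.

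Several sites had exactly the score of a member in 1 list, which allows a comparison without any scale between libraries. The vehicle score of Prdx1, 20.2, recurred on the same chromosome at 89017593. That site had a DEM score of 103.0 at 89017603, equal to that of the shared Txnrd1 site, where Prdx1 had 52.3. The DEM score of Prdx1 was held by 4 other DEM summits, on chromosome 5 at 31204434 and 135435246, chromosome 9 at 66478850 and chromosome 16 at 20372048, and 0 of these 4 had a vehicle match. So Prdx1 had a lower DEM score than the site tied with it in the vehicle list, and was the only matched one of the 5 sites with this DEM score. These ties are few, and 42.0% of the 100 DEM summits nearest to Prdx1 in rank were matched.

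The sites tied with the shared site of the Txnrd1 window in the vehicle list had similar or higher DEM scores, and those tied with it in the DEM list had higher vehicle scores. Its vehicle score of 10.6 was shared by sites on chromosome 4 at 43611192 and chromosome 11 at 103870454, whose DEM scores were 106.5 and 123.0 beside its own 103.0. Its DEM score was shared by the chromosome 4 site above and by a site on chromosome 18 at 75953192, whose vehicle scores were 20.2 and 16.5 beside its own 10.6. The DEM score of Txn1, 78.3, was shared by a site on chromosome 19 at 4046085, which had a vehicle score of 9.60 beside the 11.2 of Txn1.

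Shared sites elsewhere with the most similar pair of ranks were found by the summed difference of vehicle and DEM rank over the 2 libraries. For Txnrd1 they were the sites on chromosome 4 at 43611192 (summed difference 3) and chromosome 11 at 29245881 (12). For Txn1 they were those on chromosome 19 at 4046105 (6) and chromosome 11 at 81988530 (11). Prdx1 had no close counterpart: the nearest were on chromosome 10 at 69750669 (24), with ranks 49 and 128, and on chromosome 9 at 94440892 (29), with ranks 22 and 124. These positions are those of the vehicle list.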

How the data were processed

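Chromatin immunoprecipitation with an antibody against MafG was sequenced in 1 vehicle and 1 DEM library. Per the submitters' processing notes, MACS2 (2.1.1.20160309), Bowtie2 (2.2.9) and bcl2fastq (2.16.0.10) were used, with build mm9. The authors deposited 1 summit list per library, in which the score is a −log10 p-value or q-value. Which of these it is, the calling threshold, duplicate handling, the use of the input and the read depth were not given in the sources used here. Positions are 1-based in mm9.

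Summits within each window were taken, ranked by score within their list (equal scores share the best rank) and matched to the other list within 100 bp. The gene windows, lists and comparisons were chosen with earlier results of these data known. Named sites are all summits in the windows, the nearest outside each window (the closest are printed), rank neighbours, the 2 most similar shared sites and, added after seeing the data, sites with equal scores. Motifs were matched exactly on both strands. The matching was tested on simulated lists. Gene order came from RefSeq GRCm38.p6 and coordinates were not converted. Summits near other pathway genes were not counted, since mm9 annotation was not used here. Scripts used scipy 1.17.1, pandas 2.3.3, numpy 2.4.6 and matplotlib 3.10.9 under Python 3.11.15. The alternatives were other window widths, score minimums of 10 and 20, a shortened DEM list, other match distances, ranks over shared sites, joined summits and the NF-E2-type motif.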

Additional observations from a re-analysis of the deposited data

How the results depend on the processing

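Of 29 values under other settings, 24 stayed within 1.5 times the reported count or inside the 95% interval of the reported share. That interval served only as a yardstick and measures no uncertainty in a rank. Many of the 24 could hardly move, so the tally does not measure robustness. Summits in the windows were matched at 3, 5 and 23 bp or unmatched at 44.9 kb and 15.2 Mb. Joining summits within 500 bp barely changed the shares, and 180 of the 182 vehicle summits were shared. A score minimum of 20 left 1 vehicle summit in the windows, that of Prdx1. Keeping only as many DEM summits as the vehicle list holds left 3 in the windows, those of Txn1 and both of Txnrd1, and by construction dropped Prdx1 and Srxn1. The upper Txnrd1 site, at rank 182, was the last summit kept, and Prdx1, at rank 185, fell just below the cut. Ranked over the shared sites alone, the share of DEM scores at or above the site was 77.2% for Prdx1, 41.1% for Txnrd1 and 54.4% for Txn1, since weak unmatched summits no longer count. Windows 50 kb wider on each side held 6 DEM summits, and windows trimmed by 25% on each side held 4 DEM and 2 vehicle summits, without the shared Txnrd1 site. Match distances of 50 to 1000 bp left 3 DEM summits matched. The NF-E2-type element, a different motif of the same length, was found in 2 genes, against 3 for the core element. Match distances for the order of the shared sites were varied after seeing the data. Prdx1 stood 103 places lower with DEM at 200, 500 and 1000 bp, and 91 places lower at 50 bp, where fewer sites counted as shared. Whether it still fell furthest at 50 bp was not examined. No paired analysis was possible because vehicle and DEM had a single library each, and no replicate could be left out. Unknown read depth limits every absence of a call.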
